A study of Homo sapiens with 20 samples.

Results

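The islet hormone genes are the 7 genes that encode the main secreted peptides of the endocrine pancreas: INS, IAPP, GCG, SST, PPY, PYY and GHRL. They were taken by symbol from the Ensembl gene identifiers of the deposited tables, and all 7 were found among the 60624 identifiers of the human islet-like organoid (hILO) tables and among the 60623 identifiers of the pancreatic progenitor (PP) tables. Loss of ALKBH5, an enzyme that removes N6-methyladenosine from mRNA, went with lower INS, GCG, SST and PPY in hILOs, by 1.71-fold for INS and 6.32-fold for PPY. PYY was 1.27-fold higher in the knockout hILOs, short of the 1.5-fold limit of a call, and GHRL gave no call. In PPs, where INS, GCG and IAPP had at most 3 reads in any library, PYY was at 60.3 and 69.3 CPM in WT and at 22.3 and 25.2 CPM in the knockout.

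Most islet hormones mark one endocrine cell type. INS encodes insulin of the β-cell, which lowers blood glucose, and IAPP encodes amylin, which mature β-cells secrete with insulin. GCG encodes glucagon of the α-cell and, after different cleavage, the glucagon-like peptides of the gut. SST encodes somatostatin of the δ-cell, which restrains the secretion of its neighbours, PPY encodes pancreatic polypeptide, and GHRL encodes ghrelin of the ε-cell. PYY encodes peptide YY, a relative of pancreatic polypeptide that is made by gut L-cells and by cells of the developing islet.

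The cells came from MEL1, a human embryonic stem cell line; the study names it as an insulin reporter line, INS GFP/W, whose GFP is under the control of the INS promoter. RNA-seq covered 20 libraries. In hILOs there were 2 WT and 2 A5-KO libraries, with no actinomycin D (Act D) treatment in the labels. In PPs there were 8 WT and 8 A5-KO libraries, 2 for each genotype after 0, 1, 2 and 3 h of actinomycin D, which blocks transcription, at 1 μg/ml. A5-KO cells carry a homozygous knockout of ALKBH5 made with CRISPR-Cpf1 in the first exon, from picked colonies of hPSCs; WT cells are unedited cells of the same line. The labels do not say whether more than one A5-KO line was used, so the genotype and the clone cannot be told apart. In bulk RNA, fewer cells of a type and less RNA per cell cannot be told apart either.

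The hILO values are TPM, which keeps no read depth, and they summed to between 887320 and 924887 per library. The PP values are CPM whose steps gave back 30516384 to 35206514 reads per library. ALKBH5 itself was at 78.8 and 81.9 TPM in WT hILOs and at 4.16 and 3.42 TPM in A5-KO hILOs, and at 149 and 172 against 19.1 and 18.8 CPM in PPs at 0 h. In PPs at 0 h, the progenitor factor PDX1 lay between 153 and 200 CPM, with overlap between the genotypes. NKX6-1, another progenitor factor, was at 367 and 289 CPM in WT and at 253 and 241 CPM in A5-KO. In hILOs the endocrine granule protein CHGA lay between 17011 and 20798 TPM. Hepatocyte markers were also high in hILOs: the summed level of 10 of them was 21371 to 21668 TPM in WT and 36315 to 36594 TPM in the A5-KO libraries. Much of that rise was TTR, a gene that α-cells also express, which went from 7527 and 7550 TPM to 18674 and 18749 TPM. Of the 10 markers, 3 were called higher, TTR among them, and 3 lower, namely FGA, FGB and FGG.

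The start regions of 4 of these genes are shown because INS, SST and PPY were among the genes that fell in hILOs, while PYY, the neighbour of PPY, did not. All 7 members were matched to a RefSeq promoter on GRCh38.p14, each running from 250 bases before to 50 bases after the start. The windows are chr11:2161160-2161459 for INS, chr3:187670345-187670644 for SST, chr17:43942427-43942726 for PPY and chr17:43953891-43954190 for PYY, all on the minus strand and printed 5′ to 3′ along the gene. Capitals mark TGACGTCA (the cyclic AMP response element, CRE), TAAT (the core of homeodomain sites) and TATAAA (a form of the TATA box), searched on both strands.
INS: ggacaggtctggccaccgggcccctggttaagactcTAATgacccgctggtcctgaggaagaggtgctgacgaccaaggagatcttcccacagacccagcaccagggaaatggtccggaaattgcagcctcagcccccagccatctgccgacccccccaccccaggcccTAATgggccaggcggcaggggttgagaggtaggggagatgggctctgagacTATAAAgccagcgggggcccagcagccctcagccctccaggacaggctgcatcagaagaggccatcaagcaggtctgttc
SST: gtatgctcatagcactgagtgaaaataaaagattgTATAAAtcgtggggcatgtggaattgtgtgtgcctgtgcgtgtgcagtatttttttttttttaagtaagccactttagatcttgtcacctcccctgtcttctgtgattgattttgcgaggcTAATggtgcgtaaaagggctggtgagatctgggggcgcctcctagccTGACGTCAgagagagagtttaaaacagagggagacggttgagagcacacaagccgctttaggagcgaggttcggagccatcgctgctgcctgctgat
PPY: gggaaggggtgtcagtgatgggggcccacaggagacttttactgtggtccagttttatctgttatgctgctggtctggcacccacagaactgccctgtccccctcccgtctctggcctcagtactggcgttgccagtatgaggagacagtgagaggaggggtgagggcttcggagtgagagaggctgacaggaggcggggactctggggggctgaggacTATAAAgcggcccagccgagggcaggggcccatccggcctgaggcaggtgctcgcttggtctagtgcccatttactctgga
PYY: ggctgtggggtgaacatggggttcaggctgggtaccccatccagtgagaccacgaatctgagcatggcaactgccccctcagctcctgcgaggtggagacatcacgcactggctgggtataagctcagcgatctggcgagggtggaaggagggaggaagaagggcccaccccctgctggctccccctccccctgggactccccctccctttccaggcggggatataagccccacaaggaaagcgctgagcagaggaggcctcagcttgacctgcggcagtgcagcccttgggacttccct
The SST window held the only CRE of the 7, at position -47 from the start, a match found in 1.85% of 35116 promoters of this length. TATAAA, found in 11.5% of the promoters, began at -30 in INS, at -31 in PPY and at -215 in SST. TAAT, found in 50.2%, began at -214 and -81 in INS and at -94 in SST. The PYY window held no exact match to these 3 motifs. Only the exact letters were searched, so related forms, such as tataag in the PYY window, are not marked. An E-box, CANNTG, was present in all 7 windows and in 68.7% of all promoters; its matches are left in lower case, and no match overlapped another in the 4 windows shown. These matches are a description of the letters and say nothing of which factor was bound.

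INS (chr11:2159779-2161221 of GRCh38, minus strand) was the second most abundant gene of each WT hILO library and the third of each A5-KO library. It read 13033 and 12978 TPM in the WT libraries, against 7605 and 7606 TPM in the A5-KO libraries, means of 13005 ± 39.0 and 7605 ± 0.710 (SD, n = 2). Both A5-KO libraries lay below both WT libraries. The difference was -0.77 on the log2 scale (SE, the standard error, 0.020, limma adjusted p = 0.0021), and the A5-KO level was 58.5% of WT. Without the filter on low values INS, at a limma adjusted p of 0.053, was not called. The readthrough gene INS-IGF2 shares 246 of the 656 exon bases of INS, so the quantification could have divided reads between them. The readthrough measured 2418 and 2467 TPM in the WT libraries, against 1328 and 1325 TPM in the A5-KO libraries, lower in the knockout like INS itself.

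GCG (chr2:162142882-162152404, minus strand) moved by almost the same factor as INS. It measured 2192 and 2270 TPM in the WT libraries, against 1267 and 1266 TPM in the A5-KO libraries, again without overlap (log2 fold change -0.82, SE 0.029, limma adjusted p = 0.0024). Its rank among all genes went from 33 and 34 in the WT libraries to 80 and 84 in the A5-KO libraries.

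SST (chr3:187668912-187670394, minus strand) and PPY (chr17:43940804-43942476, minus strand) fell further. SST measured 381 and 367 TPM in the WT libraries, against 108 and 107 TPM in the A5-KO libraries, -1.79 on the log2 scale (SE 0.039, limma adjusted p = 0.0019). PPY measured 101 and 80.1 TPM in the WT libraries, against 16.2 and 11.1 TPM in the A5-KO libraries, -2.66 on the log2 scale (SE 0.22, limma adjusted p = 0.0087). The A5-KO level was 28.7% of WT for SST and 15.0% for PPY. With either WT library left out, which leaves 1 library in that arm that is assumed to vary like the A5-KO pair, the limma adjusted p of PPY was 0.054 or 0.059, at a log2 fold change of -2.83 or -2.49.

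PYY (chr17:43952733-44004469, minus strand), which lies 10256 bases from PPY, went the other way. It measured 378 and 365 TPM in the WT libraries, against 467 and 480 TPM in the A5-KO libraries, so the groups did not overlap. The log2 fold change was 0.35 (95% interval 0.25 to 0.45, limma adjusted p = 0.013), below the fold limit of the call; with no such limit 5.27% of all genes tested were higher. In WT hILOs PYY and SST were at nearly equal levels, whereas in A5-KO hILOs PYY was above SST in both libraries.

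GHRL (chr3:10285666-10292947, minus strand) measured 19.3 and 32.0 TPM in the WT libraries, against 34.9 and 25.9 TPM in the A5-KO libraries, which overlap. Its log2 fold change of 0.26 (95% interval -0.51 to 1.04, limma adjusted p = 0.58) leaves room for a change of either sign. GHRL shares 288 of its 2073 exon bases with GHRLOS, 81 with LINC00852 and 49 with ENSG00000272410, all on the opposite strand. The sources used here do not state whether the counting used strand, so reads in these stretches cannot be assigned with certainty. GHRLOS and LINC00852 were at no more than 0.643 TPM in any hILO library. ENSG00000272410 was more abundant, with 13.7 and 14.9 TPM in WT hILOs, against 13.6 and 14.1 TPM in A5-KO hILOs.

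IAPP (chr12:21354959-21379980, plus strand) was at a low level although INS was near the top of the range. By rank, 26.3% to 32.8% of all listed genes lay above IAPP in the hILO libraries. It measured 0.454 and 0.749 TPM in the WT libraries, against 0.785 and 1.35 TPM in the A5-KO libraries, below the mean of 1 TPM that a gene needed to be tested. The β-cell maturation factor MAFA was also low, with 3.14 and 1.71 TPM in WT hILOs and 0.268 and 0.366 TPM in A5-KO hILOs (limma adjusted p = 0.058).

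**Figure D1:**
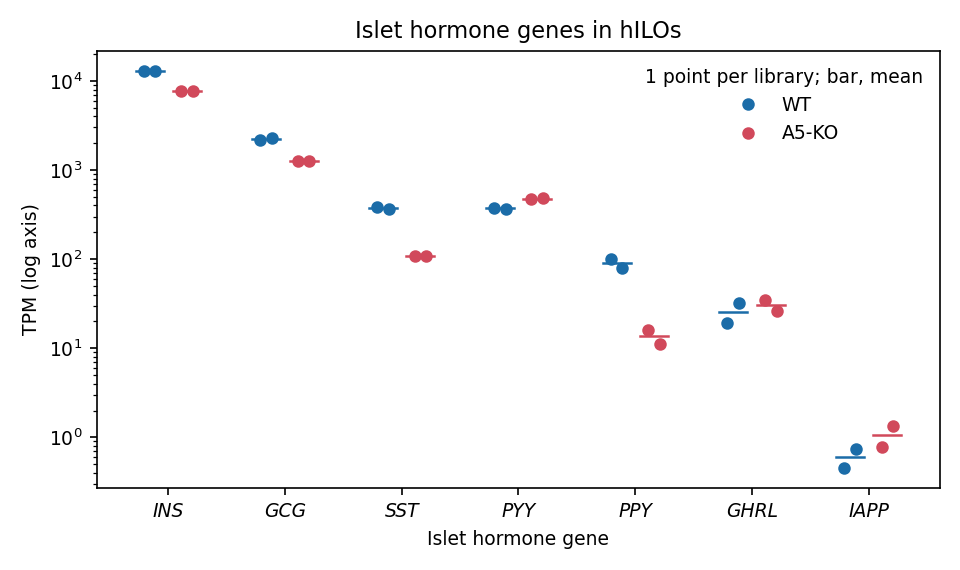
TPM of the 7 islet hormone genes in each hILO library on a log axis, with 1 point per library (2 WT, 2 A5-KO) and a bar at the mean. INS, GCG, SST and PPY are lower in both A5-KO libraries, PYY is higher in both, and the GHRL points of the genotypes overlap.

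Of the 6 members tested, 4 were called lower in A5-KO and 0 higher, a call being a limma adjusted p under 0.05 together with more than 1.5-fold; at an unadjusted p under 0.05, 5 members passed, PYY being the only one upward, as did 5344 of the 17300 genes tested. Over all those genes, 4.09% were called lower and 2.7% higher by the full limits. Without the filter on low values 2 members, GCG and SST, were called lower. The median log2 fold change of the 6 members was -0.80, against -0.063 over all genes tested. The order of the levels in WT was INS, GCG, SST, PYY, PPY, GHRL and IAPP, in which SST and PYY overlapped between libraries. In A5-KO the order was INS, GCG, PYY, SST, GHRL, PPY and IAPP, with no overlap between neighbours.

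Among 1560 genes with a mean of at least 100 TPM, the 3 whose log2 fold change lay nearest to that of INS were IGF2 (-0.78), the neighbour of INS on chromosome 11, MIR3652 (-0.77) and PLOD2 (-0.76). IGF2, a growth factor of the insulin family, measured 2331 and 2339 TPM in the WT libraries, against 1349 and 1375 TPM in the A5-KO libraries. Of these 1560 genes, 52 had a lower log2 fold change than INS, 6 had a lower one than SST and 2 a lower one than PPY.

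The ratios between hormones show how far the members moved apart, and multiplying a library by one factor does not alter them. The ratio of INS to GCG was 5.95 and 5.72 in WT and 6.00 and 6.01 in A5-KO. On the log2 scale this is a change of 0.043, close to the SD of 0.040 between the WT libraries. The mean ratio moved by 1.03-fold while both genes fell. Quantile normalization, which is not a single factor, set INS and GCG apart, with log2 fold changes of -0.999 and -0.72.

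The other ratios changed by about 1 log2 unit or more. INS to SST was 34.2 and 35.4 in WT and 70.7 and 71.0 in A5-KO, a change of 1.03. INS to PPY was 128 and 162 in WT and 469 and 687 in A5-KO, a change of 1.98. SST and PPY were therefore lower relative to INS in both A5-KO libraries.

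INS to PYY went from 34.5 and 35.5 down to 16.3 and 15.9, a log2 change of -1.12. INS to GHRL was 674 and 406 in WT and 218 and 294 in A5-KO, a change of -1.05. PYY to PPY, a pair chosen after its values were seen, went from 3.73 and 4.56 to 28.8 and 43.3, which is 8.57-fold on the mean log2 scale. None of the 6 ratios overlapped between the genotypes, but with 2 libraries against 2 the exact permutation test gave its smallest two-sided p, 0.33, for each, and the Benjamini-Hochberg adjusted value of the 5 INS ratios is the same.

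**Figure D2:**
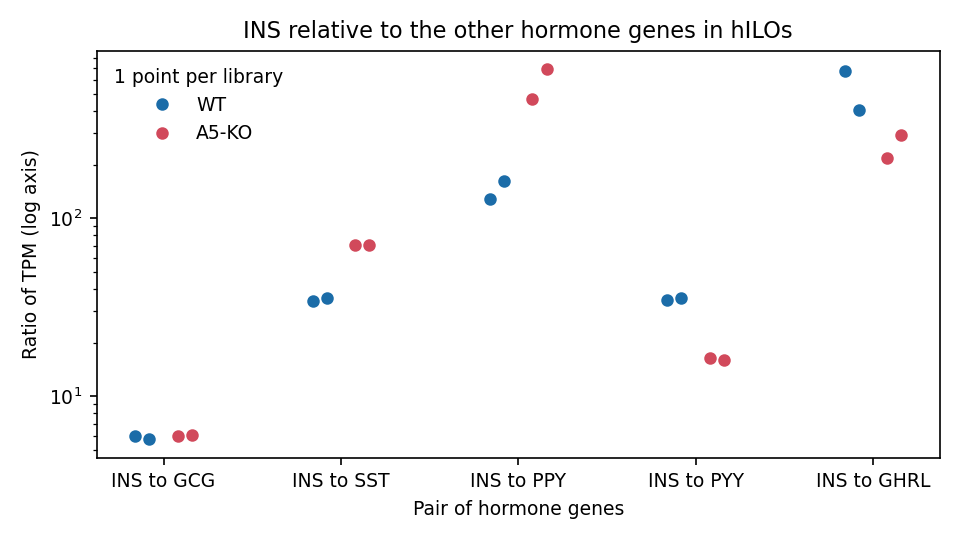
Ratio of the TPM of INS to that of each other testable hormone gene in each hILO library on a log axis, with 1 point per library. The INS to GCG points lie between 5.72 and 6.01 in all 4 libraries, the ratios to SST and PPY are higher in A5-KO, and those to PYY and GHRL are lower.

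The hormone genes together held 16105 and 16093 TPM in WT hILOs, and 9498 and 9497 TPM in the A5-KO libraries, which is 1.74% of the summed TPM of each WT library and 1.06% and 1.07% in A5-KO. INS made up 80.8% of this hormone TPM in WT and 80.1% in A5-KO, and GCG 13.9% and 13.3%. The shares of the minor hormones moved more. SST went from 2.32% to 1.13% and PPY from 0.564% to 0.144%, whereas PYY went from 2.31% to 4.98% and GHRL from 0.159% to 0.320%.

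The A5-KO libraries were close to each other for the main hormones. They differed by 0.0002 on the log2 scale for INS and 0.0010 for GCG, against a median of 0.036 for the 110 genes with at least 1000 TPM. For SST the difference was 0.0049, against a median of 0.052 for the 1548 genes with at least 100 TPM. Other genes differed by more, so the values of the 2 libraries are not identical. The small SDs of these hormones come from only 2 libraries. The labels do not say what separates the replicates, and the cause of this closeness was not tested.

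Other peptide hormones, on a list of relatives of the islet hormones and of gut or neural peptides, moved in both directions in hILOs. Of 15 tested, 2 were called lower and 5 higher, with a median log2 fold change of 0.17. SCT, which encodes the gut hormone secretin, was at 111 and 117 TPM in WT and rose to 448 and 447 TPM in the A5-KO libraries (log2 fold change 1.96, limma adjusted p = 0.0019).

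GAST, which encodes gastrin, rose from 2663 and 2679 TPM to 4459 and 4403 TPM (log2 fold change 0.73, limma adjusted p = 0.0021). GAST was above GCG in the WT libraries as well as in the A5-KO libraries. TAC1, which encodes substance P, fell from 33.3 and 33.6 TPM to 8.74 and 9.56 TPM (log2 fold change -1.76, limma adjusted p = 0.0036). The other gene called lower was IGF2; the other 3 called higher, named after their values were seen, were CCK, MLN and GHRH, with log2 fold changes of 2.62, 1.19 and 1.17. GIP and NTS were not called, at log2 fold changes of 0.17 and -0.43.

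**Figure D3:**
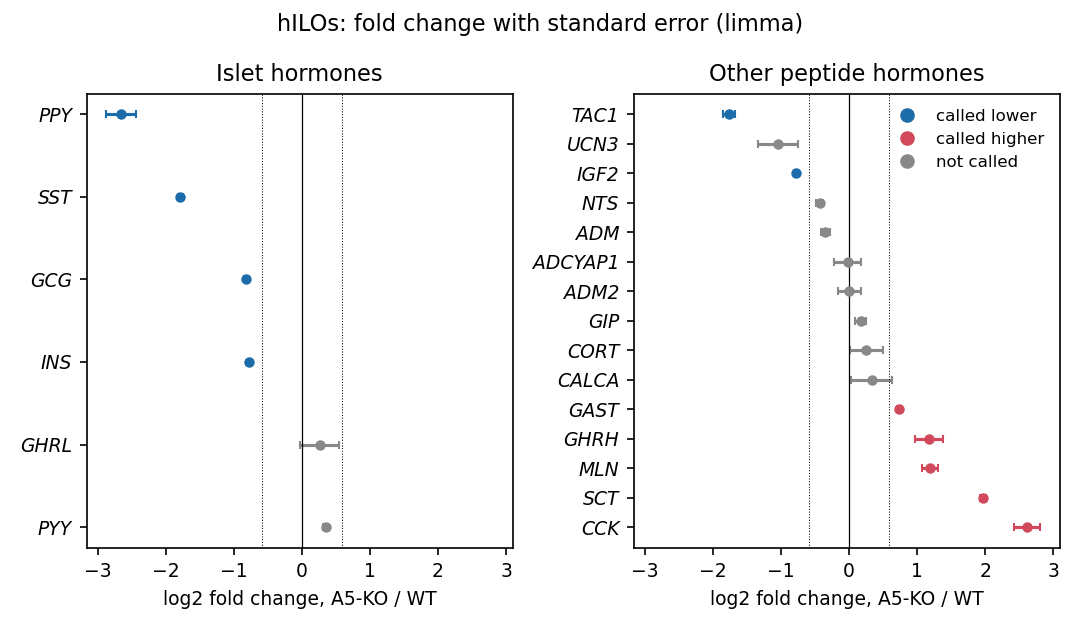
Log2 fold change (A5-KO over WT) with its standard error from limma for the 6 tested islet hormone genes and the 15 tested other peptide hormone genes in hILOs; dotted lines mark 1.5-fold and colours the calls. Of the islet hormones 4 lie left of the line, and of the other peptides 2 lie left and 5 right among those called.

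Prohormones need cleavage and trimming before they act. Of 10 genes for prohormone processing, 2 were called lower and 0 higher. PAM, the enzyme that amidates the ends of peptides such as pancreatic polypeptide and peptide YY, fell from 53.4 and 93.1 TPM to 13.6 and 18.9 TPM (log2 fold change -2.07, limma adjusted p = 0.029). PDIA4, a folding enzyme of the endoplasmic reticulum, fell from 233 and 239 TPM to 152 and 146 TPM (log2 fold change -0.66, limma adjusted p = 0.0057). The convertases PCSK1 and PCSK2 were not called, with log2 fold changes of -0.53 and -0.43, within the 1.5-fold limit. PCSK1N, SCG5, ERO1B and CPE went the other way, at log2 fold changes of 0.56, 0.33, 0.31 and 0.18. Each of these convertases and other genes had a limma adjusted p below 0.05 without reaching 1.5-fold. The whole list summed to 2849 to 2850 TPM in WT and 3078 to 3225 TPM in the A5-KO libraries.

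Of the 12 tested receptors of these hormones, 2 were lower and 1 was higher. CALCR and RAMP3, whose products form an amylin receptor, fell from 12.5 and 16.7 TPM to 0.958 and 0.828 TPM and from 26.4 and 28.4 TPM to 12.3 and 11.3 TPM. SSTR1, a somatostatin receptor, rose from 65.5 and 66.2 TPM to 105 and 99.2 TPM (log2 fold change 0.62, limma adjusted p = 0.0088).

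Of 17 transcription factors that act on hormone genes, 3 were lower and 2 higher. HHEX, a factor of δ-cells, fell from 5.58 and 6.77 TPM to 2.41 and 2.61 TPM (log2 fold change -1.03, limma adjusted p = 0.032), and IRX2, an α-cell factor, fell from 11.01 and 10.76 TPM to 3.71 and 5.63 TPM (log2 fold change -1.09, limma adjusted p = 0.043). NEUROD1, which binds the INS promoter, rose from 208 and 209 TPM to 352 and 350 TPM (log2 fold change 0.75), and PAX4 rose from 54.8 and 53.6 TPM to 83.6 and 80.9 TPM (log2 fold change 0.59). The third factor that was lower, named after its values were seen, was NEUROG3, with a log2 fold change of -1.04 at levels of 2.44 TPM or less. PDX1 and NKX6-1 were not called.

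Markers of the whole endocrine lineage gave a different count from the hormones. Of 8 pan-endocrine markers 0 were called lower by limma and 1 was called higher, SCG2, at a log2 fold change of 0.90, and their summed level was 21292 to 23647 TPM in WT and 21061 to 22381 TPM in the A5-KO libraries, which overlap. CHGA made up most of that sum. Unlike the sum, CHGA alone did not overlap, being lower in each knockout library than in either WT library. The change was -0.155 on the log2 scale and was not called (limma adjusted p = 0.23). INSM1, another marker of this list, was higher by 0.24 on the log2 scale (limma adjusted p = 0.032), under 1.5-fold. Hepatocyte markers moved in both directions: of 10, 3 were higher, with APOA2 at a log2 fold change of 2.18, TTR at 1.31 and ALB at 1.01, and 3 were lower, with FGB at -0.89. TTR is also made by α-cells.

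Of 6 enterochromaffin markers 2 were lower (TPH1 and SLC18A1) and 1 was higher (ADRA2A), and their sum lay between 1323 and 1326 TPM in WT and between 1089 and 1162 TPM in the A5-KO libraries. Of 6 intestinal markers tested, 0 were called at these limits, and their list summed to 2373 to 2429 TPM in WT and 2751 to 2828 TPM in the A5-KO libraries; at an adjusted p below 0.05 and under 1.5-fold, FABP2, VIL1, LGALS4 and CDH17 were higher. CEL of 5 acinar markers and LUM and COL1A2 of 3 mesenchyme markers were higher, and SPP1 of 6 duct markers was lower, each below 20 TPM. The duct list as a whole summed to 955 to 967 TPM in WT and 1158 to 1226 TPM in the A5-KO libraries, with KRT19, its most abundant gene, at a log2 fold change of 0.52 (limma adjusted p = 0.0066), under 1.5-fold. The part of these other cell types in the hormone differences was not tested.

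In PPs INS, GCG and IAPP were nearly silent, SST, PPY and GHRL were low, and PYY was far above the others. Over all 16 libraries INS had 2 reads, GCG 2 and IAPP 5, and each of these genes had at most 3 reads in every library. For INS this is 0.0038 CPM with an exact Poisson 95% interval of 0.00046 to 0.014 CPM, which covers counting error only. IAPP had 0 reads in the 8 WT libraries, which allows up to 0.0114 CPM at 3 counts over the group. INS-IGF2 was at 0 in every PP library.

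GHRL had 79 reads in all, in 14 of 16 libraries, at 0 to 15 reads each. PPY had 4 to 32 reads per library, or 0.117 to 1.03 CPM. SST had 19 to 63 reads, or 0.618 to 1.81 CPM. Neither GHRL nor PPY reached the mean of 1 CPM needed for a test. PYY had 720 to 2238 reads per library and made up 92.5% to 98.4% of all hormone reads. Scaled by exon length to TPM, so that genes can be compared, PYY lay at 93.5 to 184 TPM in WT PPs and at 58.7 to 93.1 in A5-KO PPs, against 2.99 to 6.85 and 4.01 to 8.89 for SST.

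**Figure D4:**
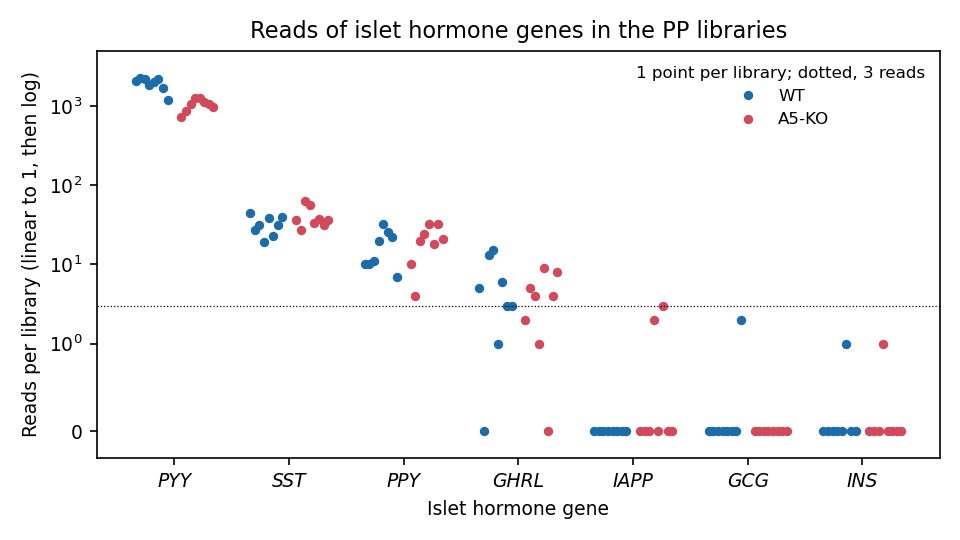
Reads of each islet hormone gene in each of the 16 PP libraries, with 1 point per library in order of Act D time, on an axis that is linear up to 1 read and logarithmic above. PYY lies at 720 to 2238 reads, SST and PPY at 4 to 63, and INS, GCG and IAPP at or under the dotted line at 3 reads.

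PYY was lower in A5-KO PPs. At 0 h it was at 60.3 and 69.3 CPM in WT and at 22.3 and 25.2 CPM in A5-KO, -1.41 on the log2 scale (SE 0.11, limma adjusted p = 0.00018). It was the 1 of 2 members tested that was called lower, where 1.13% of all 13911 genes were called lower and 1.57% higher. SST, the other, was at 1.29 and 0.837 CPM in WT and at 1.11 and 0.791 CPM in A5-KO, -0.077 on the log2 scale (95% interval -0.56 to 0.41, limma adjusted p = 0.88). This interval is on the log2(CPM + 1) scale, which understates the change of a gene this low. It does not exclude a moderate change of SST in either direction.

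The difference in PYY continued under Act D and narrowed. At 1 h PYY was at 63.1 and 60.8 CPM in WT and at 30.8 and 37.3 CPM in A5-KO, that is, a log2 fold change of -0.85 (limma adjusted p = 0.00071; 1.15% of 13620 genes were called lower). At 2 h it was at 64.3 and 65.6 CPM in WT and at 36.6 and 37.0 CPM in A5-KO, that is, a log2 fold change of -0.80 (limma adjusted p = 0.0011; 4.24% called lower). Neither time showed any overlap between the genotypes.

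At 3 h PYY was at 50.7 and 37.3 CPM in WT and at 30.6 and 30.9 CPM in A5-KO. Both A5-KO libraries were still below both WT libraries, but the log2 fold change of -0.49 (limma adjusted p = 0.010) was under the 1.5-fold limit, at a time when 17.7% of all genes were called lower. The lower WT library decides this: without it the log2 fold change was -0.70 (limma adjusted p = 0.0022), which is past the limit. Over the mean of the 4 times, PYY differed by -0.89 on the log2 scale (SE 0.066, limma adjusted p = 7.1e-08; 2% of 13620 genes called lower), with the 8 A5-KO libraries between 22.3 and 37.3 CPM and the 8 WT libraries between 37.3 and 69.3 CPM. The only WT library within the A5-KO range was the lower one at 3 h. The fit over the 4 times treated all 16 libraries as independent. The labels do not say whether the times of a replicate came from the same culture.

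The genotype effect on PYY differed between 3 h and 0 h by 0.92 on the log2 scale (SE 0.19, limma adjusted p = 0.0041); 1.72% of all genes had a difference in that direction and 16.6% in the other. Fitted as a straight line over the hours of Act D, the log2 slope of PYY was -0.17 per h in WT (limma adjusted p = 0.35) and 0.12 per h in A5-KO (limma adjusted p = 0.15). The A5-KO slope passed 0.05 in 3 of 5 alternatives and the WT slope in 1 of 5, always with the same sign. The difference of the slopes, 0.29 per h (95% interval 0.086 to 0.49), had a limma adjusted p of 0.094, where 0.0661% of all genes passed 0.05 upward. CPM is a share of the reads of each library, so its slope is relative to the other transcripts and is not a change in amount.

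SST passed no test in PPs. Its largest log2 fold change was at 1 h, with 0.886 and 0.618 CPM in WT and 1.81 and 1.67 CPM in A5-KO (0.65, limma adjusted p = 0.072), from 31 and 19 reads against 63 and 57. Over the mean of the 4 times its log2 fold change was 0.15 (95% interval -0.070 to 0.38, limma adjusted p = 0.28). PPY, not tested, lay at 0.221 to 1.03 CPM in WT and 0.117 to 0.934 CPM in A5-KO, which overlap. GHRL overlapped too, at 0 to 0.488 CPM and 0 to 0.263 CPM.

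Over the 16 PP libraries, the 3 genes whose log2(CPM + 1) followed PYY most closely among the 8919 genes averaging at least 10 CPM were COL9A2 (Pearson r = 0.97), TMEM59L (0.96) and COL6A2 (0.96). The points share the same 2 genotypes and 4 times, and within genotypes the r of COL9A2 was 0.90 over the WT libraries and 0.86 over the A5-KO libraries. These values describe the libraries and carry no test.

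Few related genes were called in PPs at 0 h. Of 4 other peptide hormones tested 1 was called: NTS, which encodes neurotensin, rose from 16.9 and 19.5 CPM to 45.6 and 41.2 CPM (log2 fold change 1.21, limma adjusted p = 0.00061). Of 8 transcription factors 1 was called, RFX6, an endocrine factor that rose from 4.88 and 3.47 CPM to 15.4 and 9.90 CPM (log2 fold change 1.38, limma adjusted p = 0.0092). NKX6-1 was not called, at a log2 fold change of -0.40 (limma adjusted p = 0.067), although both A5-KO libraries lay below both WT libraries. SCGN was the 1 of 5 pan-endocrine markers that rose (log2 fold change 0.67). None of 6 processing genes and none of 8 receptors was called at these limits by limma.

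Of the other cell types in PPs at 0 h, 7 of 10 hepatocyte markers were higher in A5-KO, and their sum was 1159 to 1218 CPM in WT and 1972 to 2008 CPM in A5-KO. AFP, TTR, ALB and FGB led by adjusted p, with log2 fold changes of 1.24, 2.19, 1.58 and 1.84. Much of the rise in the sum was AFP, at 563 and 551 CPM in WT and 1343 and 1294 CPM in A5-KO. Among the markers not called, SERPINA1 was lower in A5-KO, at 311 and 371 CPM against 200 and 268 CPM (log2 fold change -0.55, limma adjusted p = 0.0496). APOA1 was higher (0.46, limma adjusted p = 0.023), and APOA2 was at -0.097 (limma adjusted p = 0.72). Of 6 mesenchyme markers 3 were higher (COL3A1, COL1A1 and LUM), and of 7 intestinal, 3 enterochromaffin, 4 acinar and 6 duct markers 0 were called by limma at the 1.5-fold limit. CDH17, CDX2 and VIL1 of the intestinal list, CFTR and ANXA4 of the duct list and DDC of the enterochromaffin list were below an adjusted p of 0.05 without reaching 1.5-fold. The intestinal list summed to 712 to 723 CPM in WT and 895 to 918 CPM in A5-KO, the opposite order to that of PYY. The part of these cells in the difference in PYY was not tested.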

How the data were processed

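Samples were grouped by genotype, stage and time as labelled. For hILOs, the authors aligned reads to hg38 with HISAT2 (version 2.1.0), summarised them with StringTie and deposited TPM per gene. For PPs, the authors deposited CPM per gene after trimming with fastp, the same alignment and removal of the spike-ins; the read counter and the annotation release are not given in the sources used here. At least 99.9951% of CPM values were whole multiples of 1 read, within 0.01. The labels give hILO media to day 22, and the methods of the study go further. Identifiers were matched to symbols with GENCODE (60370 and 60369). The members and the gene lists were chosen with earlier results of these data known.

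The genotypes were compared with limma (3.58.1, R 4.3.3) on log2(TPM + 1) or log2(CPM + 1) for genes averaging 1 or more. PPs at 0 h were fitted alone, and the later times, the mean over times and the genotype effect by time in one fit of 16 libraries. Slopes used log2(CPM + 0.1). Benjamini-Hochberg adjustment ran over all genes tested, and a call also needed a 1.5-fold change, except for slopes and the genotype effect by time. Fold changes are on the log2(value + pseudocount) scale, which understates the change of low genes. Stages were never fitted together, since their tables were normalized separately. DESeq2, the test of the study, needs counts and could not be used on TPM. EdgeR (4.0.16) and DESeq2 (1.42.0) ran on the recovered reads at 0 h as alternatives. Ratios were tested with the exact permutation test (Python 3.11.15, scipy 1.17.1). Depth is unknown for TPM, and a floor of 3 counts was used for PPs.

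Named genes are the members, genes overlapping them, ALKBH5, at most 4 called genes per list by adjusted p in hILOs or PPs at 0 h, the 3 genes nearest to INS in fold change and the 3 most like PYY; genes used to describe cell types or to complete a short count were named after their values were seen. The labels call the samples replicates without saying what separates them, so p-values measure the spread between these libraries. The code was tested on simulated data. The alternatives were other pseudocounts, filters, scalings and time points, a replicate block and each library left out in turn.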

Additional observations from a re-analysis of the deposited data

Results flagged for a closer look

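The genotype effect on PYY in PPs differed between 3 h and 0 h of Act D by 0.92 on the log2 scale, past the threshold in the test of the difference itself (limma adjusted p = 0.0041). The value was 0.71 to 1.14 with each library left out in turn, with an adjusted p of at most 0.034. PYY also differed in direction between the stages: the A5-KO libraries were above both WT libraries in hILOs (log2 fold change 0.35) and below both in PPs at 0 h (-1.41). The difference between the stages was not tested, because the TPM and CPM tables were normalized separately.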

How the results depend on the processing

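The calls of GCG and SST in hILOs and of PYY in PPs at 0, 1 and 2 h and over the mean of the times held under every alternative run. In hILOs, the fit without a filter called 2 members lower in place of 4, with INS at an adjusted p of 0.053 and PPY at 0.060, and the rule without a limit on the fold called 1 member higher, PYY. PPY also missed 0.05 without either WT library, where that arm held 1 library. Scaling moved the log2 fold change of INS between -0.999 and -0.71. With each library left out, the members called lower in hILOs numbered 3 to 4. The log2 fold change of GHRL ran from -0.086 to 0.61. At 3 h in PPs 0 to 1 members were called lower, the 1 being PYY without the second WT library of 3 h.

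SST in PPs changed sign freely around 0: -0.24 to 0.042 at 0 h, -0.11 to 0.31 at 2 h and -0.17 to 0.059 at 3 h with a library left out, 0.014 at 3 h with median-of-ratios scaling, and -0.14 to 0.18 for the genotype effect at 3 h against 0 h. At 0 h only 2 of the 4 libraries could be left out, since SST otherwise fell below the filter. The SST slope ran from -0.031 to 0.16 in WT and from -0.17 to 0.031 in A5-KO with a library left out. It was -0.44 in WT with 0 and 1 h only, and in A5-KO 0.82 with 0 and 1 h, 0.028 with 0 and 3 h and 0.052 with median-of-ratios scaling. The difference of the SST slopes was 1.26 with 0 and 1 h only and 0.011 with 0 and 3 h only. The difference of the PYY slopes was 0.32 with 0 and 3 h only (adjusted p = 0.0068) and 0.20 to 0.33 with a library left out, passing 0.05 without the first WT library of 0 h (adjusted p = 0.047). The PYY slope in A5-KO passed with median-of-ratios scaling (0.22, adjusted p = 0.026), with 0 and 1 h only (0.51, adjusted p = 0.0035) and with 0 and 3 h only (0.12, adjusted p = 0.043), and in WT with 0 and 3 h only (-0.19, adjusted p = 0.016). The cause of these shifts was not tested.

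A replicate block left 4 members lower and 0 higher in hILOs and 1 lower in PPs at 0 h, and changed no call. To see whether same-numbered libraries belong together, the log2 difference between the first and second library was taken per gene in each genotype. Over genes, this difference in WT correlated with that in A5-KO at -0.0053 in hILOs. In PPs the correlation at each time was -0.059 to 0.18, the highest value being at 0 h. The labels do not say what a replicate number marks, and with 2 pairs the libraries were not treated as paired. At 0 h edgeR called 433 genes, DESeq2 464 and limma 375, and PYY was among them in each. The number of libraries, 2 per group, limits the precision for hILOs, and counts of 63 reads or fewer limit SST, PPY and GHRL in PPs.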
